A study of Oryza sativa with 12 samples.

Results

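The 157 rice loci described here were strongly raised by 3 d of submergence in leaves of both genotypes of the study, FR13A and Goda Heenati. They were chosen by these measured responses: a locus was included if its spot was well above background on all 12 arrays and its mean level was at least 3 higher on the log2 scale (8-fold) in submerged than in control leaves in each genotype. The array holds probes for 29690 loci, of which 18485 were well above background on all arrays, so the 157 loci make up 0.849% of the latter. Another 4 loci also met these values but are left out by the definition of the group and are not analysed here.

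The arrays measured leaf RNA of rice (Oryza sativa) seedlings that were 14 d old when the treatment began. FR13A submerged and Goda Heenati submerged plants stood in a tank under 70 cm of water for 3 d, and FR13A control and Goda Heenati control plants stood in a tank that held no water. Each group had 3 biological replicates, and each replicate pooled the leaves of about 20 plants taken from several pots. When the water was added, the shoot tips lay 52.7 ± 2.3 cm below the surface in FR13A and 45.9 ± 2.9 cm below it in Goda Heenati, so depth above the plant and genotype cannot be told apart in comparisons of submerged plants.

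A leaf under water exchanges gas slowly, so oxygen can run short and ethylene, a gaseous hormone, builds up. Plant cells then draw more of their energy from fermentation, in which pyruvate decarboxylase and alcohol dehydrogenase turn pyruvate into ethanol, and rice varieties differ in whether they stretch towards the surface or save their reserves. FR13A is a landrace known for surviving complete submergence.

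The array files identify each gene by its locus and give no name, and the reference gene table used here holds none of the 157 loci. Loci are therefore given without names or functions. The exception is Os11g0210300, called ADH1 here from general knowledge. ADH1 is an alcohol dehydrogenase of ethanol fermentation, and the table has 1 gene of that name, on chromosome 11, which does not establish that the name belongs to the locus. Each locus is represented by its brightest probe. A level is the log2 processed signal of that probe minus the array's 75th percentile, so 0 stands for that percentile. A response is the mean level of the 3 submerged arrays minus that of the 3 control arrays, and levels of different probes are not compared as amounts of RNA.

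The 12 arrays had 30982 to 34837 of 43734 non-control spots well above background, and arrays of a group correlated with r of 0.939 to 0.968 over loci, which are not independent replicates. Replicate numbers 1, 2 and 3 equal the slide, each slide holding 1 array of every group. The files give another scan day for slide 1, whose arrays had 1868 to 2442 saturated spots each, against 0 on the other slides. The 4 loci listed as leaf markers were well above background on all 12 arrays, with levels from 2.05 to 7.26. Among the 3 loci listed as root markers, Os03g0107300 was well above background on 0 arrays, Os02g0662000 on 6 and Os02g0745100 on 12. The last had mean levels of -1.01 and -2.74 in FR13A control and submerged leaves and of -1.06 and -2.65 in those of Goda Heenati, differences that were not called by limma (adjusted p = 0.0588 and 0.0818). Its part in the results was not tested. Os03g0727000, listed as a meristem marker, was well above background on 7.

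The responses of the 157 loci ran from 3.01 to 8.62 in FR13A and from 3.02 to 8.64 in Goda Heenati. Their medians were 3.97 (15.7-fold) and 4.16 (17.9-fold), while the median response of all 22581 loci tested was 0.06 in FR13A and 0.08 in Goda Heenati. Because these responses selected the loci, they are a description and carry no test. Both responses reached 4 at 65 loci, 5 at 27 loci and 6 at 9 loci. A response of at least 3 was found at 187 loci (1.01%) in FR13A and at 267 loci (1.44%) in Goda Heenati among those well above background on all arrays. In pooled leaf tissue, a change in RNA per cell and a change in the share of cells of one type cannot be told apart.

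**Figure D1:**
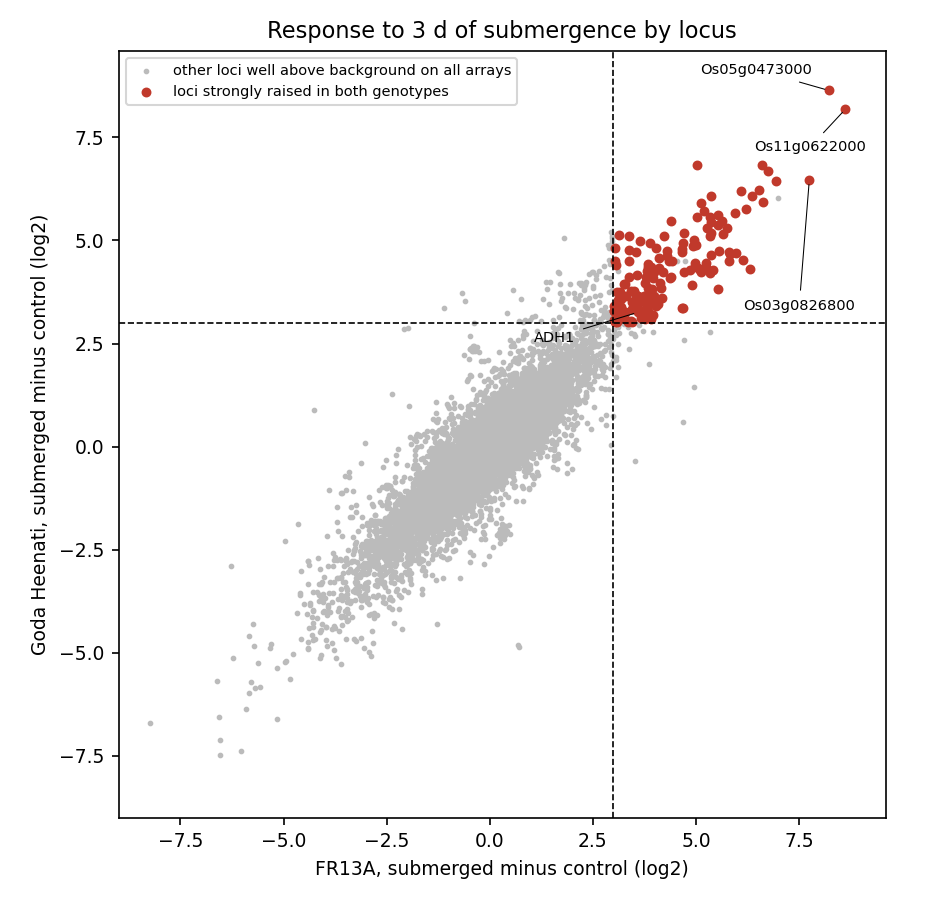
Response to submergence (log2, submerged minus control) in FR13A on the x axis and in Goda Heenati on the y axis, 1 point per locus well above background on all 12 arrays. Red points are the 157 loci, which by definition lie beyond both dashed lines at 3, and the highest responses, of Os05g0473000 and Os11g0622000, exceed 8 in both genotypes. The 4 grey points beyond both lines are the loci left out by the definition.

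Few of these loci were bright in control leaves. Their median control level was -3.36 in FR13A and -3.30 in Goda Heenati, against -0.92 and -0.93 for all loci well above background on all arrays. Under submergence their median level was 1.16 in FR13A and 1.08 in Goda Heenati. The number of loci above the array's 75th percentile went from 13 in FR13A control leaves to 112 in FR13A submerged leaves, and from 12 to 113 in Goda Heenati. The control mean enters both the level and the response, so the following is a description only. The 13 loci with a mean control level above 0 had a median response of 3.42, and the 26 below -5 had a median response of 4.63.

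In the limma fit over all loci, a call needed a change of 2-fold or more and a Benjamini-Hochberg adjusted p below 0.05. The fit called 152 of the 157 loci higher in FR13A and 152 in Goda Heenati, where 10.2% and 9.06% of all tested loci were called higher. These shares follow from the selection, and nothing is read from them. All submerged arrays lay above all control arrays at 155 of the 157 loci in FR13A (20.6% of all tested loci), at 155 in Goda Heenati (22.2%) and in both genotypes at 154 (14.7%). This separation is likewise a consequence of the selection, and nothing is read from it.

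Os05g0473000 had the highest mean response. In FR13A its level was -5.51, -6.32 and -4.03 on the control arrays of slides 1, 2 and 3, and 2.79, 3.93 and 2.08 on the submerged arrays. The Goda Heenati controls gave -5.58, -5.27 and -4.13, and the submerged plants 2.61, 4.68 and 3.66. Every submerged array lay far above every control array, and the means differed by 8.22 ± 0.72 (SE) in FR13A and by 8.64 ± 0.72 in Goda Heenati. Both slide 1 submerged spots were saturated, and with them left out the differences were 8.29 and 9.16. Here and below, leaving out saturated spots kept the slide 1 control arrays, so differences between slides also enter such values.

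Os11g0622000 came next. Its control levels were -5.29, -5.40 and -6.63 in FR13A and -5.23, -4.85 and -5.81 in Goda Heenati. Its submerged levels were 2.45, 3.32 and 2.78 in FR13A and 2.56, 3.38 and 2.71 in Goda Heenati. The 6 submerged arrays thus lay within 1 log2 unit of each other, none of them saturated, and the responses were 8.62 ± 0.42 and 8.18 ± 0.42.

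The third locus in this order, Os03g0826800, varied widely between slides. Its FR13A control level was -3.13, 0.04 and -7.03 on slides 1, 2 and 3, and its Goda Heenati control level -1.89, -0.31 and -4.18. Both genotypes were thus highest on slide 2 and lowest on slide 3 among the controls. The FR13A control level of -7.03 was close to the lowest signal well above background on that array, -7.49. Submerged levels were 2.82, 5.88 and 4.43 in FR13A and 2.63, 5.72 and 4.64 in Goda Heenati, with both slide 1 spots saturated. Without these spots the responses were 8.53 and 7.31. With them they were 7.75 ± 1.65 and 6.46 ± 1.65 and have a larger error than those of the other loci of the top 10.

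Os02g0802500 had 3 probes, of which the brightest is given. It stood at -2.19, -3.49 and -2.71 in FR13A controls and at 3.00, 4.80 and 3.64 in FR13A submerged leaves. In Goda Heenati it stood at -2.39, -3.18 and -2.38 in controls and at 2.87, 5.13 and 4.57 under submergence. No array of one treatment overlapped the other treatment, and the responses were 6.61 ± 0.62 and 6.84 ± 0.62, or 7.02 and 7.5 without the slide 1 submerged spots, which were saturated.

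Os04g0688300 had responses of 6.75 ± 0.42 and 6.68 ± 0.42, or 6.81 and 6.96 without its saturated slide 1 submerged spots. The FR13A arrays read -4.07, -3.37 and -4.36 in controls and 2.70, 3.27 and 2.49 under submergence, and the Goda Heenati arrays read -4.13, -2.85 and -3.92 and then 2.49, 3.62 and 3.03. The genotypes overlapped at this locus within each treatment.

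Os03g0277600 was dim in controls, at -5.26, -5.30 and -6.65 in FR13A and -5.15, -3.07 and -5.74 in Goda Heenati. Submerged leaves read 2.17, 1.80 and -0.37 in FR13A and 2.66, 2.09 and 0.61 in Goda Heenati. Slide 3 was lowest in all 4 groups, and the responses were 6.94 ± 0.86 and 6.44 ± 0.86, the latter 6.0 without the saturated Goda Heenati spot of slide 1. That spot was the highest of its submerged group, so leaving it out lowered the mean.

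Os03g0198600 was the dimmest of the top 10 in controls, at -5.93, -5.99 and -7.18 in FR13A and -5.97, -6.25 and -7.18 in Goda Heenati. These control levels are close to the lowest signal well above background, which lay between -7.84 and -6.58 on the 12 arrays. Under submergence its levels were 0.23, 1.11 and -0.84 in FR13A and 0.43, -0.20 and -0.95 in Goda Heenati. The responses were 6.53 ± 0.57 and 6.23 ± 0.57.

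Os12g0592900 read -3.04, -3.13 and -0.35 in FR13A controls and 2.81, 5.94 and 4.59 in FR13A submerged leaves. In Goda Heenati the control levels were -2.30, -1.65 and -0.59 and the submerged levels 2.63, 5.77 and 4.89. Here slide 3 was the highest of the controls in both genotypes, the opposite of Os03g0826800, and the slide 1 submerged spots were saturated. The responses were 6.62 ± 1.04 and 5.94 ± 1.04, or 7.44 and 6.84 without those spots.

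Os06g0125200 was lowest on slide 3 in all 4 groups. Its levels were -4.34, -3.82 and -7.15 in FR13A controls, 1.59, 2.27 and -0.09 in FR13A submerged leaves, -4.53, -3.25 and -6.45 in Goda Heenati controls, and 2.18, 2.16 and -0.33 in Goda Heenati submerged leaves. The slide 3 levels were low in control and submerged leaves alike, and the difference on slide 3 remained above 6 in both genotypes. The FR13A control level of -7.15 was close to the lowest signal well above background on that array, -7.49. The responses were 6.36 ± 1.1 and 6.08 ± 1.1.

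The tenth locus, Os03g0291500, was lower in FR13A than in Goda Heenati in both treatments and returns below among the genotype differences. Its levels were -3.85, -5.23 and -4.50 in FR13A controls and -2.46, -4.03 and -3.12 in Goda Heenati controls, then 1.89, 1.21 and 1.60 in FR13A submerged leaves and 2.87, 2.99 and 3.11 in Goda Heenati submerged leaves. Its responses were 6.09 ± 0.42 and 6.19 ± 0.42, nearly the same size in the 2 genotypes. The slide 1 submerged spot of Goda Heenati was saturated, and its response was 6.25 without it.

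**Figure D2:**
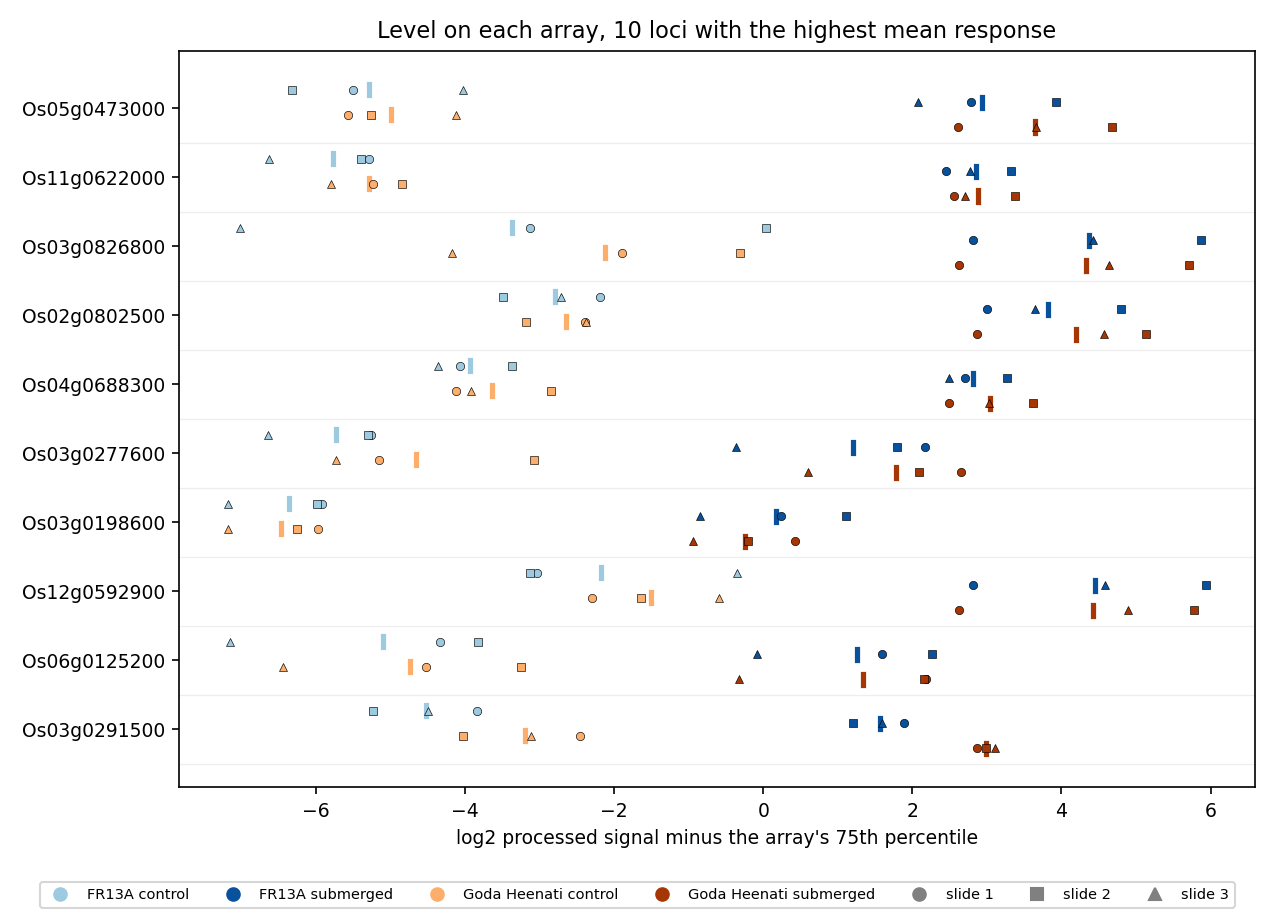
Level on each array (log2 processed signal minus the array's 75th percentile) for the 10 loci with the highest mean response, 1 row per locus. Points are arrays, with the shape showing the slide and the colour the group, and bars are group means. At all 10 loci every submerged array lies to the right of every control array of the same genotype.

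The loci with the highest submerged levels were bright enough to saturate on slide 1. In all, 45 of the 157 loci were saturated on at least 1 array, 10 of them on 1 array and 35 on 2. All were submerged arrays of slide 1, and none was a control array. The 10 were saturated in Goda Heenati only, and the 35 in both genotypes. ADH1 (Os11g0210300) is one of these. Its level was 0.90, 0.95 and 0.84 in FR13A controls and 2.77, 5.87 and 4.81 in FR13A submerged leaves, and 1.5, 1.68 and 1.57 in Goda Heenati controls and 2.62, 6.38 and 5.52 in Goda Heenati submerged leaves. The controls lay close together, and the saturated slide 1 arrays were the lowest of the submerged ones. Its responses were 3.59 ± 0.91 (12.0-fold) and 3.26 ± 0.91 (9.55-fold) with the saturated spots kept at their values. With those spots left out they were 4.45 and 4.37.

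At the other loci with high submerged levels, slide 1 was likewise saturated and the lowest of the submerged arrays in both genotypes. Os01g0192000 read 1.36, 1.96 and 1.61 in FR13A controls and 2.95, 6.17 and 5.68 in FR13A submerged leaves. In Goda Heenati it read 1.69 and 1.83 on control slides 1 and 3, slide 2 being left out as flagged, and 2.77, 6.04 and 6.26 under submergence. Its responses were 3.29 ± 1.0 and 3.27 ± 1.12, and 4.28 and 4.40 with saturated spots left out.

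Os10g0576600 read 0.11, -0.71 and 1.39 in FR13A controls and 3.08, 5.48 and 4.95 in FR13A submerged leaves, and -0.81, -1.62 and 0.98 and then 2.89, 5.71 and 5.26 in Goda Heenati. Os05g0525900 read -0.46, 0.39 and -0.34 and then 2.85, 5.62 and 5.21 in FR13A, and -1.22, -0.52 and -0.92 and then 2.65, 5.48 and 4.79 in Goda Heenati. At both loci the treatments were fully apart, with responses of 4.24 ± 0.94 and 5.10 ± 0.94 for the first and 4.70 ± 0.79 and 5.19 ± 0.79 for the second. Without saturated spots these were 4.95 and 5.97, and 5.55 and 6.02.

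Within slides, the median response of the 157 loci was 4.18, 4.40 and 3.91 on slides 1, 2 and 3 in FR13A and 4.24, 4.34 and 3.96 in Goda Heenati. Every locus with a value was higher in the submerged than in the control array on every slide, although the difference was as small as 0.19 on slide 2 and 0.03 on slide 3 in FR13A. The selection used these same arrays and favours this. Of the 45 loci saturated on slide 1, 10 were saturated in Goda Heenati only. The FR13A values of the 45 therefore include 10 unsaturated loci. On slide 1 the 45 had a median response of 3.48 in FR13A and 3.75 in Goda Heenati, and the other loci 4.31 and 4.45. On slide 2 the order was the other way, with 4.75 and 4.58 for the 45 loci and 4.23 and 4.28 for the others. With saturated spots left out, the median response of the 45 loci was 4.15 in FR13A and 4.40 in Goda Heenati, against 3.85 and 3.78 with them.

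**Figure D3:**
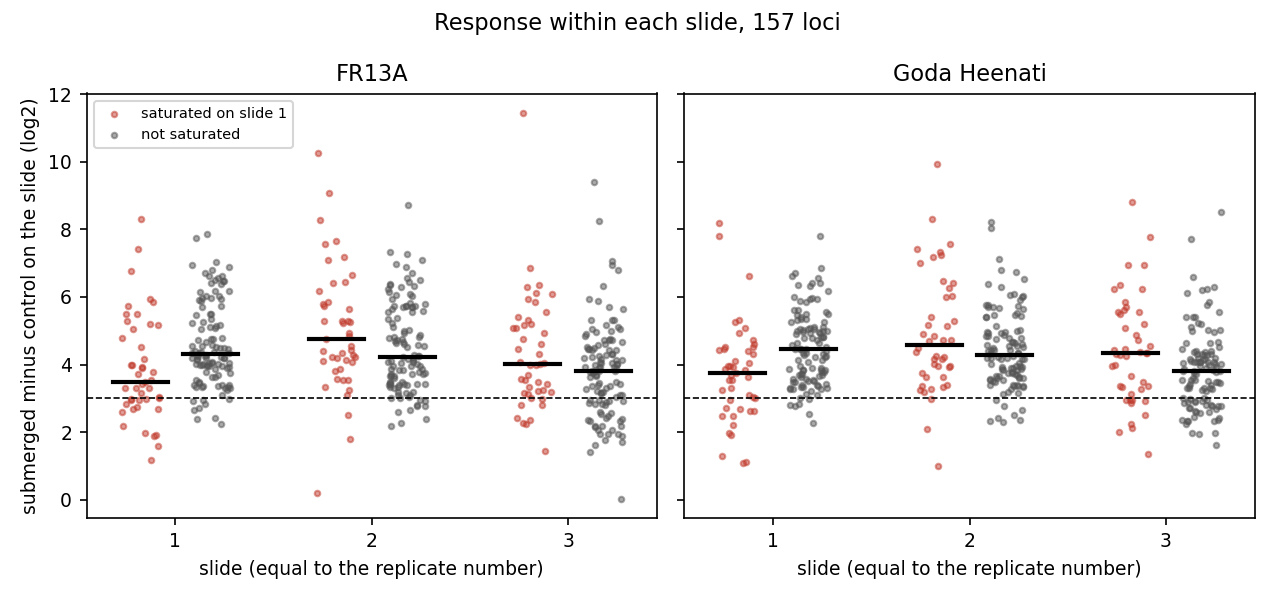
Response on each slide (log2, submerged minus control array of the same slide) in FR13A, left, and Goda Heenati, right, 1 point per locus, with black bars at medians. Red points are the 45 loci saturated on slide 1 in at least 1 genotype, of which 10 were not saturated in FR13A. By their medians they lie lower than the others (grey) on slide 1 and higher on slides 2 and 3. The dashed line marks 3.

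The 157 loci varied more between replicates than other detected loci. The median SD over 3 replicates was 0.77 in FR13A controls, 0.63 in FR13A submerged leaves, 0.59 in Goda Heenati controls and 0.67 in Goda Heenati submerged leaves, against 0.35 to 0.38 for all loci well above background on all arrays. The sets were not matched for level, the 157 loci being dimmer in controls. In addition, 45 of the 157 had saturated submerged spots on slide 1. The part of either in the spread was not tested. Of the 3 loci at which a submerged array overlapped a control array, Os03g0280400 stood at -3.31, 2.93 and -3.50 in FR13A controls and at -1.92, 2.64 and -2.35 in Goda Heenati controls. Its submerged arrays read 2.18, 3.12 and 2.34 in FR13A and 2.61, 3.65 and 3.22 in Goda Heenati. On slide 2 both controls thus lay within the range of the submerged arrays of their genotype.

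Os02g0569900 overlapped in FR13A only, where the controls read -5.44, -0.78 and 1.5 and the submerged arrays 2.42, 1.48 and 1.54. Os10g0456800 overlapped in Goda Heenati, where the controls read -2.15, -5.62 and -6.35 and the submerged arrays 0.66, -1.97 and -2.27. These loci, with Os03g0266300 and Os06g0714800, are named because they were not called in at least 1 genotype, a choice made after their values were seen. Os01g0192000, given above, was also not called in Goda Heenati. Os03g0266300 was lowest in controls on slide 1 (-1.20 in FR13A, -1.45 in Goda Heenati) and Os06g0714800 on slide 3 (-2.34 and -2.16), while the remaining control arrays of these loci read 0.83 to 2.46. At Os03g0280400, Os03g0266300 and Os06g0714800 the deviating slide was thus the same in both genotypes. With the replicate number as a block in the fit, 156 of the 157 loci were called higher in FR13A (13.2% of all loci) and 157 in Goda Heenati (12.1%). These counts also follow from the selection and are no separate support for the responses.

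The edge of the group is a cut through a continuous range. Just inside it lay Os07g0568700, with responses of 3.01 in FR13A and 3.29 in Goda Heenati, Os10g0409400 with 3.35 and 3.02, and Os07g0569800 with 3.02 and 3.07. Just outside it lay Os02g0520100 with 3.00 (2.997) and 3.22, Os07g0538200 with 3.25 and 2.97, and Os04g0367200 with 2.97 and 5.05. The loci on the 2 sides of the threshold differ by hundredths of a log2 unit in the smaller of their responses.

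The next comparison asked whether the size of the response differed between the genotypes. The difference, FR13A response minus Goda Heenati response, ranged from -2.01 to 1.99 with a median of 0.07, and its size was under 1 at 133 of the 157 loci. Since both responses had to reach 3, large differences were less likely to be included. By limma no locus of the 157 was called for this difference, against 21 of all loci (0.093%), and 5 of the 157 had an unadjusted p under 0.05 (4.5% of all loci did). With the replicate block the count was again 0 of 157, against 80 of all loci (0.354%), and 9 had an unadjusted p under 0.05 (8.3% of all loci). The median SE of the difference was 0.79, so a difference of 1 log2 unit was not detectable at most loci.

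The largest response excess in FR13A was at Os06g0725000. It read -4.81, -3.93 and -6.20 in FR13A controls and -3.68, -2.64 and -3.83 in Goda Heenati controls. Under submergence it read 1.34, 1.88 and 0.74 in FR13A and 1.35, 0.96 and 0.47 in Goda Heenati. The genotypes differed mainly in the controls, and the responses of 6.30 and 4.31 differed by 1.99 (95% interval 0.25 to 3.74, limma adjusted p = 0.96).

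Os01g0348900 had the smallest adjusted p of the 157 loci for this difference. Its controls read -2.94, -3.43 and -1.99 in FR13A and -1.81, -1.77 and -1.08 in Goda Heenati, and its submerged arrays 2.55, 2.90 and 2.76 in FR13A and 2.02, 2.40 and 2.40 in Goda Heenati. The responses of 5.52 and 3.83 differed by 1.70 (95% interval 0.59 to 2.80), with a limma adjusted p of 0.472, or 0.156 with the replicate block. A dimmer probe of this locus, not well above background on all arrays, gave 4.16 and 0.27. Os04g0115700 followed with 6.14 and 4.53, a difference of 1.61 (95% interval -0.51 to 3.73). Its controls were alike in both genotypes, at -5.76, -5.91 and -6.43 in FR13A and -6.10, -6.02 and -6.22 in Goda Heenati, while its submerged arrays read 0.96, 0.81 and -1.46 against -0.59, -1.25 and -2.92.

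In the other direction, Os12g0109500 had responses of 3.13 in FR13A and 5.14 in Goda Heenati, a difference of -2.01 (95% interval -4.37 to 0.36). Its controls read -4.14, -2.99 and -3.80 in FR13A and -6.37, -5.70 and -6.59 in Goda Heenati, so the genotypes did not overlap in control leaves. Its submerged arrays, at 0.25, 0.32 and -2.11 in FR13A and 0.18, -0.92 and -2.51 in Goda Heenati, did overlap.

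The neighbouring loci Os04g0664600 and Os04g0664900 came next, with differences of -1.81 (95% interval -3.87 to 0.25) and -1.78 (95% interval -3.78 to 0.22). Os04g0664600 read -5.97, -3.39 and -3.42 in FR13A controls and -4.83, -5.95 and -5.94 in Goda Heenati controls, and 0.99, 0.65 and 0.66 against 1.02, 2.10 and 0.66 under submergence. Os04g0664900 read -5.64, -5.77 and -4.53 against -5.84, -6.28 and -5.43 in controls, and -2.69, -3.01 and -1.13 against -2.00, 0.26 and -1.36 under submergence. For ADH1 the difference was 0.33 (95% interval -2.53 to 3.20), an interval that holds several-fold differences either way. It comes from the fit without the block, which counts slide differences shared by both genotypes as error. At ADH1 the saturated slide 1 arrays were the lowest submerged ones in both genotypes, so the interval may overstate the uncertainty.

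The genotypes were also compared by level over both treatments, a contrast that the selection did not use. FR13A minus Goda Heenati, averaged over control and submerged leaves, had a median of -0.10 and ran from -3.26 to 2.68. By limma 9 of the 157 loci were called, 2 higher and 7 lower in FR13A, where 11.6% of all tested loci were called. Over all loci 5.7% were called higher and 5.87% lower. The median SE was 0.40 for the 157 loci and 0.25 for all tested loci, so the same difference is less readily called among the 157. In a fit limited to loci well above background on all arrays, 8 of the 157 were called, against 6.13% of those loci. With the replicate block 17 loci were called, 6 higher and 11 lower in FR13A, where 13.0% of all loci were called, 6.55% higher and 6.46% lower.

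The largest of these differences was at Os01g0124200. It read -2.95, -3.81 and -3.78 in FR13A controls and 0.66, -0.96 and -1.66 in Goda Heenati controls. Under submergence it read 1.56, -0.25 and 0.23 in FR13A and 2.62, 5.31 and 4.58 in Goda Heenati. In each treatment every FR13A array lay below every Goda Heenati array, and the average difference was -3.26 ± 0.54 (limma adjusted p = 0.00151). Within slides 1, 2 and 3 it was -2.33, -4.21 and -3.23. The mean level was 0.51 in FR13A submerged leaves and -0.65 in Goda Heenati controls, while the response was 4.02 in FR13A and 4.82 in Goda Heenati. The slide 1 submerged spot of Goda Heenati was saturated, and the Goda Heenati response was 5.60 without it.

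Os06g0549900 was lower in FR13A by 1.64 ± 0.33 as FR13A minus Goda Heenati (-1.64, limma adjusted p = 0.0052). Its controls read -4.80, -4.91 and -3.53 in FR13A and -2.86, -2.37 and -2.43 in Goda Heenati, and its submerged arrays 1.83, 0.82 and 1.38 against 2.11, 3.62 and 2.54. Os02g0742700 differed by -1.29 ± 0.27 (adjusted p = 0.00646). It read -5.39, -6.06 and -4.30 against -3.82, -3.92 and -3.36 in controls, and -1.19, -1.39 and -1.19 against -0.03, -0.18 and -0.47 under submergence. At both loci the genotypes were apart in each treatment. Os03g0291500, of the top 10 above, differed by -1.38 ± 0.30 (adjusted p = 0.00866), and within slides by -1.19, -1.50 and -1.45.

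Os01g0580500 differed by -1.72 ± 0.46 (adjusted p = 0.0285). Its FR13A controls, at -1.90, -2.74 and 0.00, overlapped the Goda Heenati controls at -0.31, 0.32 and 1.19, whereas its submerged arrays, at 1.87, 2.55 and 2.41 against 2.94, 4.24 and 4.13, did not overlap. The Goda Heenati spot at 2.94 was saturated. The call was lost when any 1 of 8 of the 12 arrays was left out, with differences then of -1.75 to -1.42 and adjusted p of 0.0513 to 0.0737.

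Os07g0126200 and Os07g0126800 gave nearly equal values and carry probes designed on the same source transcript, so they count as 1 measurement. The lower calls above thus hold this measurement more than once. Os07g0125600, with a probe on the same transcript, was called only with the block. Its mean control and submerged levels were -5.17 and -0.51 in FR13A against -3.16 and 1.62 in Goda Heenati. Os07g0126800 read -5.54, -6.44 and -4.47 in FR13A controls and -5.30, -2.80 and -1.49 in Goda Heenati controls, then -0.76, -0.74 and 0.03 against 0.70, 2.85 and 1.53 under submergence. Its difference was -2.23 ± 0.63 (adjusted p = 0.036), and -0.85, -3.61 and -2.24 within slides 1, 2 and 3, so slide 1 showed much less of it. For Os07g0126200 the difference was -2.13 ± 0.62 (adjusted p = 0.0395). The call of Os07g0126800 was lost when any 1 of 9 arrays was left out (-2.36 to -1.81) and that of Os07g0126200 when any 1 of 8 was (-2.18 to -1.70).

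Among the loci higher in FR13A, Os07g0663800 differed by 2.18 ± 0.48 (adjusted p = 0.00883). It read 0.98, 2.06 and 1.34 in FR13A controls and -1.29, -0.60 and -2.46 in Goda Heenati controls, a full separation. Under submergence it read 2.88, 5.60 and 5.03 in FR13A and 2.68, 3.37 and 3.14 in Goda Heenati, where both slide 1 spots were saturated and the genotypes overlapped.

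Os07g0539900 differed by 1.27 ± 0.33 (adjusted p = 0.0234). It read -1.97, -3.13 and -2.76 against -4.20, -3.22 and -4.33 in controls and 2.40, 1.98 and 1.05 against 1.06, 0.72 and -0.06 under submergence. Its responses of 4.43 and 4.49 were nearly the same, so FR13A stood above Goda Heenati by a similar step in both treatments. The call was lost when any 1 of 6 arrays was left out (1.11 to 1.23).

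**Figure D4:**
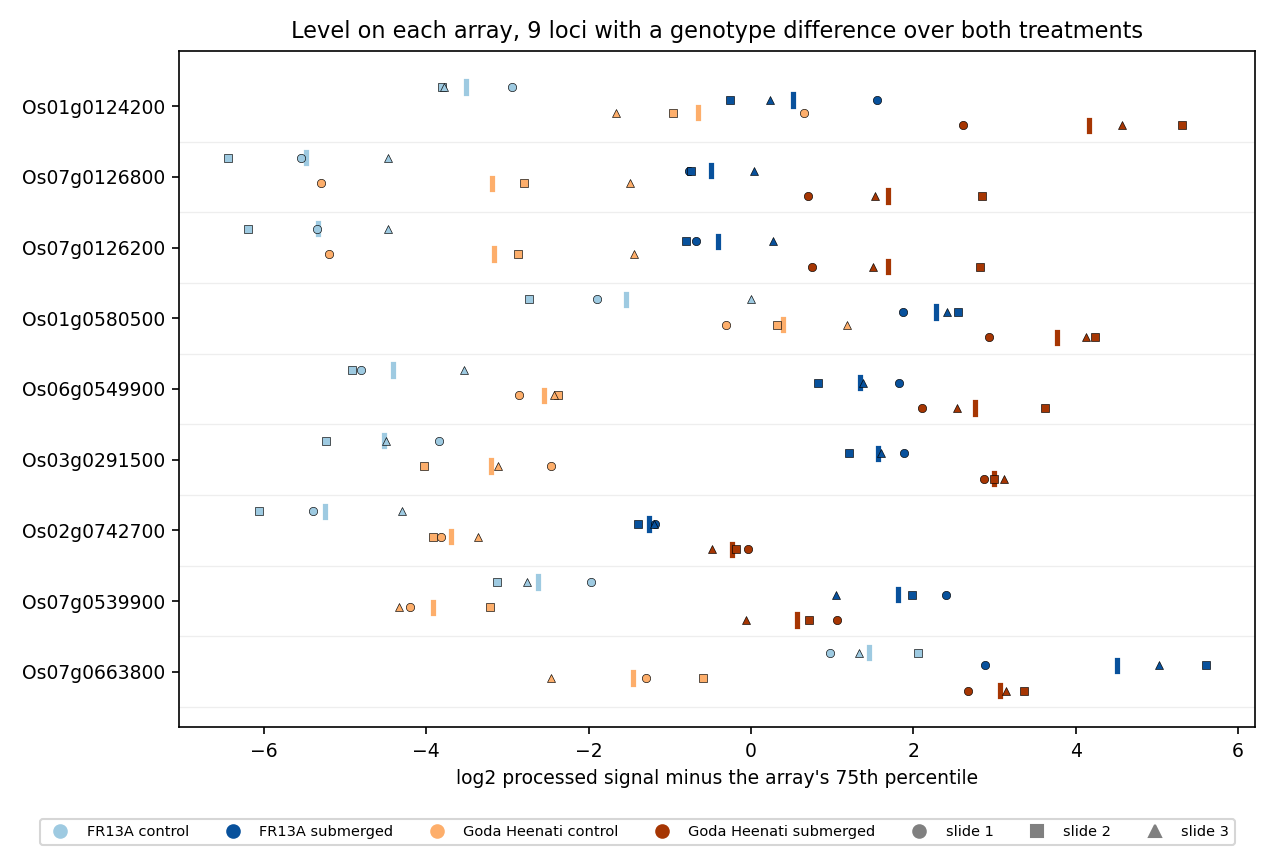
Level on each array (log2 processed signal minus the array's 75th percentile) for the 9 loci called for a genotype difference averaged over both treatments, 1 row per locus, with points as arrays, shapes as slides and bars as group means. The first 7 rows lie lower in FR13A (blue) than in Goda Heenati (orange), from Os01g0124200 at -3.26 to Os02g0742700 at -1.29, and the last 2 rows lie higher.

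Taken by treatment, 4 of the 157 loci were called for a genotype difference in controls, where 8.51% of all loci were called, and 1 under submergence, where 10.2% were. In the fit limited to loci well above background on all arrays these counts were 3 (4.08% of those loci) and 1 (5.34%). The arrays of the 2 genotypes did not overlap at 24 of the 157 loci in controls (20.2% of all loci) and at 21 under submergence (25.4%). All loci here include those well above background in as few as 1 group, whereas the 157 were so on all arrays. The share among loci well above background on all arrays was not computed, so nothing is read from this comparison. The control calls were Os07g0663800 (2.91 ± 0.67, limma adjusted p = 0.0189), Os01g0124200 (-2.86 ± 0.77, adjusted p = 0.0431), Os06g0549900 (-1.86 ± 0.47, adjusted p = 0.0289) and Os02g0742700 (-1.55 ± 0.38, adjusted p = 0.0254). Under submergence the call was Os01g0124200 (-3.66 ± 0.77, adjusted p = 0.00948). The replicate block raised these counts to 12 (10.7% of all loci) and 8 (12.9% of all loci), and it ended the control call of Os01g0124200 (adjusted p = 0.0524). Leaving out single arrays ended the control call of Os07g0663800 for 4 of 12 arrays (2.40 to 2.99), of Os01g0124200 for 8 (-3.14 to -2.20), and of Os06g0549900 (-2.01 to -1.61) and Os02g0742700 (-1.66 to -1.15) for 5 each. Whether the genotype differences in controls and under submergence themselves differ is the difference of responses tested above.

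Of the loci called only with the block, Os10g0456800 had the largest average difference. It was 2.68 ± 0.85 without the block (limma adjusted p = 0.0607), with an adjusted p of 0.00104 in the blocked fit. Its FR13A controls read -0.69, -1.48 and -3.81 and its FR13A submerged arrays 2.30, 1.69 and 0.40, while the Goda Heenati arrays given above were lower on the same slide in every case. The average difference was 1.55, 3.89 and 2.61 on slides 1, 2 and 3. The other probes of this locus, well above background on all arrays, disagreed about it. One had mean control and submerged levels of -2.06 and 1.42 in FR13A against -4.79 and -1.20 in Goda Heenati. Another had -4.72 and -1.76 against -4.34 and -1.38, so FR13A was not higher there. The difference therefore holds for some probes of the locus only. Os05g0360400 was lower in FR13A, by -1.80 ± 0.59 as FR13A minus Goda Heenati (adjusted p = 0.0688, or 0.0014 with the block), and by -1.36, -2.04 and -1.99 within slides.

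Some of the 157 loci lie next to each other. With a distance of at most 1000 in locus number on one chromosome, 25 of them formed 11 groups of 2 or 3. Locus numbers follow the order of genes and are not base positions. In the windows of these groups stood another 129 loci. Of these, 68 were well above background on all arrays, with a median response of 0.31 in both genotypes, and at 8 of them both responses reached 1. Most measured neighbours thus had small responses. Another 61 were not well above background on all arrays, and 13 of these had differences of at least 3 in both genotypes, so the detection requirement kept them out. Of the 13, 6 lay in the window of Os07g0125600. Among these, Os07g0125500, Os07g0126100 and Os07g0126700 carry probes designed on 1 source transcript, so the 13 are not all separate measurements. The share of such differences among all loci failing the detection requirement was not computed, and nothing is read from the count.

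The group on chromosome 4 around Os04g0635400 had responses of 3.83 and 4.35 there (FR13A first), 3.95 and 4.10 at Os04g0635500 and 5.62 and 5.47 at Os04g0635600. Their neighbours Os04g0635000 and Os04g0635100, which were well above background on 10 and 8 arrays, were among the 13 loci kept out. On chromosome 8, Os08g0189400 had 3.10 and 3.55, Os08g0189600 had 3.83 and 3.28 and Os08g0189900 had 3.83 and 4.44, and 2 more loci of their window were kept out in the same way. The pair Os03g0826800 and Os03g0826900 had 7.75 and 6.46, and 5.55 and 4.74. At Os07g0537500 and Os07g0537600 the responses were 4.10 and 4.58, and 4.37 and 4.09, and Os07g0538200, just outside the threshold, lies in the same window.

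The group of Os07g0125600, Os07g0126200 and Os07g0126800 had responses of 4.65 to 4.99 in FR13A and 4.78 to 4.89 in Goda Heenati. All 3 share a source transcript, so their likeness is no evidence of 3 separate genes responding. At Os01g0124100 the responses were 3.65 and 5.0 and at Os01g0124200 4.02 and 4.82, while Os01g0124000, well above background on 7 arrays, went the other way with -2.91 and -4.63. The pairs at Os01g0185500, Os03g0244200, Os07g0251200 and Os10g0109300 had responses between 3.07 and 5.81. The last of the 11 groups is the pair Os04g0664600, with 5.02 and 6.83, and Os04g0664900, with 3.04 and 4.82.

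**Figure D5:**
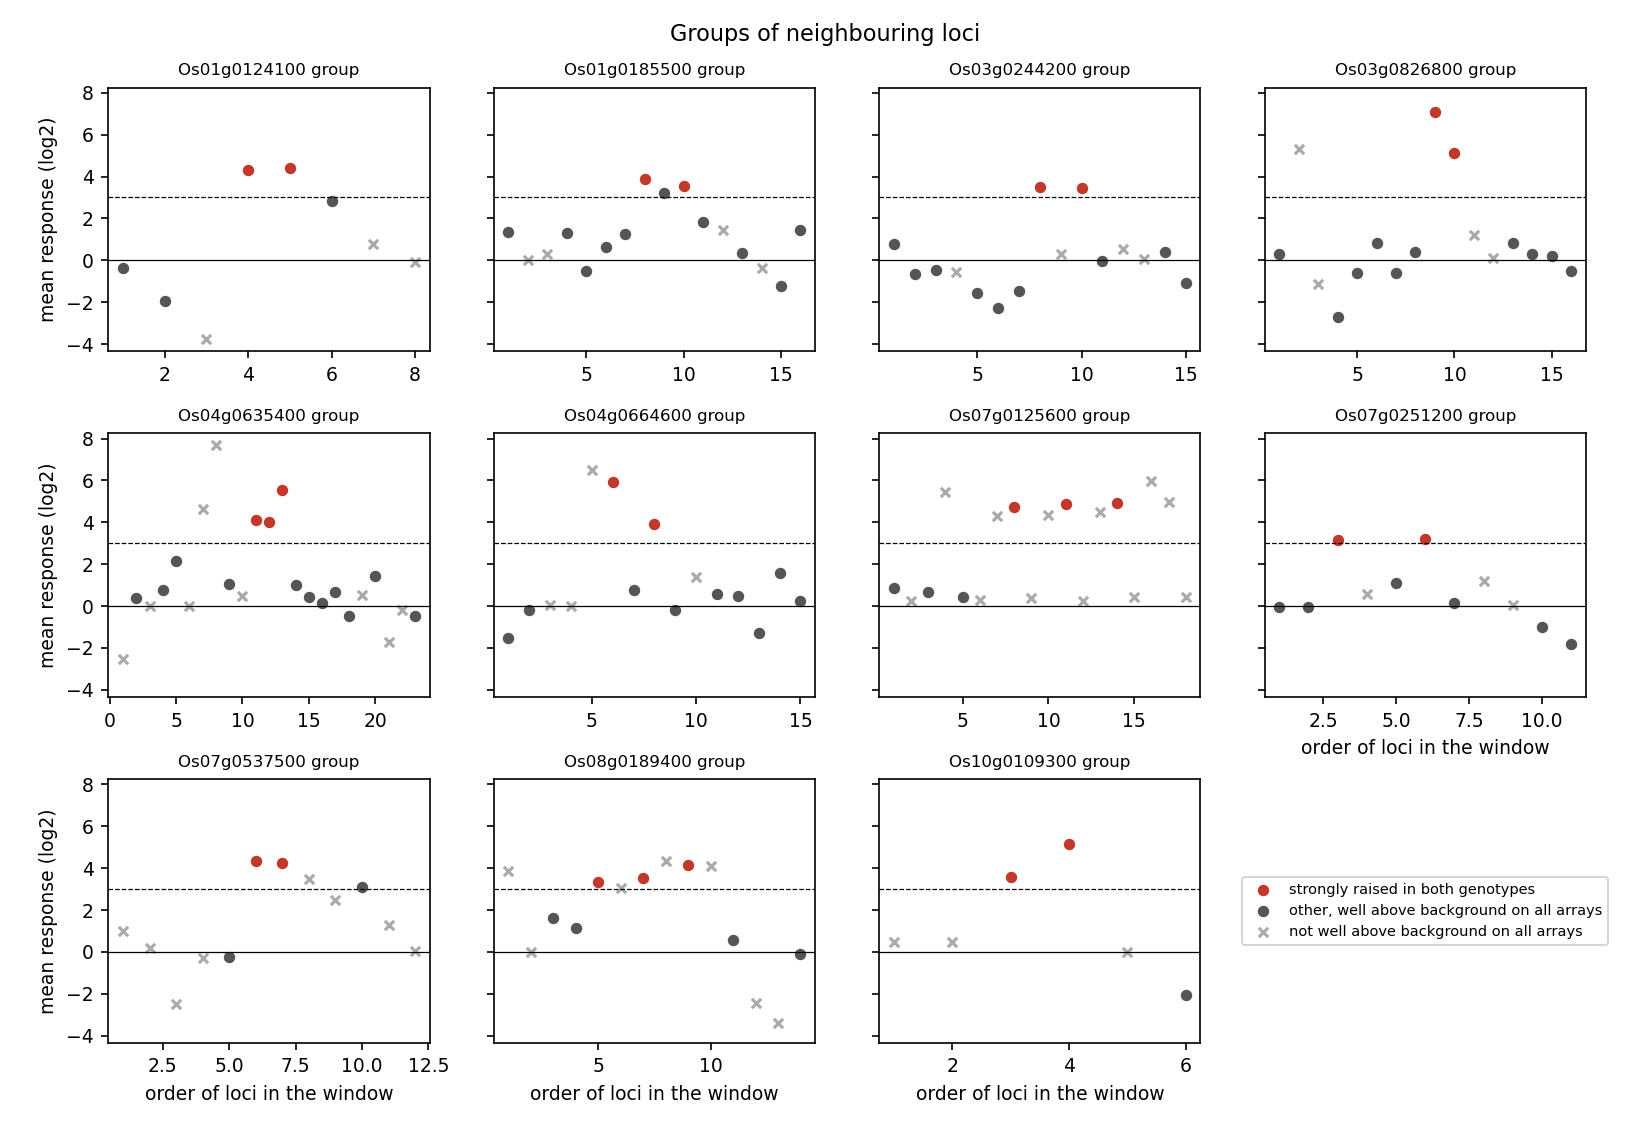
Mean response of both genotypes (log2, y axis) of every locus in the windows of the 11 groups, in locus order (x axis), 1 panel per group named by its first locus. Red points are loci of the 157, dark points other loci well above background on all arrays, grey crosses loci that were not, and the dashed line marks 3. Dark points lie mostly near 0, and several crosses, such as those beside Os04g0635400 and Os07g0125600, lie above 3.

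Sharing of source transcripts reaches beyond neighbours. The 157 probes were designed on 149 distinct source transcripts, and 5 of these served 13 loci. Os04g0537700, Os05g0436600 and Os09g0130500, on different chromosomes, had responses of 5.81 to 5.98 in FR13A and 4.68 to 4.73 in Goda Heenati. Os01g0568100, Os07g0216200 and Os09g0332900 had 5.09 to 5.25 and 4.29 to 4.47. Signals of such loci cannot be told apart here, and each is uncertain as a measure of its own locus. The same holds for Os04g0316200 and Os04g0322100, which have different source transcripts but whose levels differed by at most 0.16 on any array.

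A second probe bears on some of the loci. Of the 157 loci, 57 had more than 1 probe, with 93 probes besides the brightest, and 77 of the 93 were well above background on all arrays. All 77 had responses of at least 1 in both genotypes and 68 of at least 3, with medians of 3.94 and 3.63. Of the other 16 probes, which were not well above background on all arrays, 10 had differences of at least 3 in both genotypes and 6 did not. Among the 6, chosen after their values were seen, a dim probe of Os08g0537900 gave 1.03 and 0.54 against 3.15 and 3.18 at the brightest, and one of Os01g0348900 gave 4.16 and 0.27 against 5.52 and 3.83. These values include spots below background, and a probe of Os04g0115700 that no group as a whole measured above background gets no value. These probes share the RNA samples of the brightest probe and are no independent replicates. Probes of ADH1 agreed in direction but not in size, with 3.59 and 3.26 at the brightest, 3.80 and 3.61, 4.00 and 4.25, and 4.94 and 4.79 at the others. At Os10g0576600 the brightest gave 4.24 and 5.10 and the others between 3.48 and 6.43. At Os01g0129500 the second probe gave 2.67 and 2.27, under the threshold, against 3.77 and 3.08. The other 100 loci had 1 probe.

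The 157 loci lay on all 12 chromosomes, from 7 on chromosomes 11 and 12 to 28 on chromosome 1. As a share of the loci well above background on all arrays they ran from 0.362% on chromosome 2 to 1.41% on chromosome 4. Of 56 loci listed from general knowledge for fermentation, sugar and starch breakdown, hormones, stress proteins and related processes, 50 were tested and 34 were well above background on all arrays, and ADH1 was the only one of the 157. The loci listed as ADH2 (Os11g0210500) and ACS1 (Os03g0727600) had differences of at least 3 in both genotypes but were well above background on only 6 and 8 arrays, and so were kept out by the detection requirement. Of the 50, limma called 12 higher in FR13A and 9 lower, and in Goda Heenati 12 higher and 11 lower, where 11.7% of all loci were called lower in each genotype and 10.2% and 9.06% higher. The median response of the 50 tested loci was 0.22 in FR13A and 0.18 in Goda Heenati.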

How the data were processed

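Per the submitters' processing notes, Agilent Feature Extraction 10.5.1.1 was the tool the authors used on the scans of their 12 one-colour arrays. The deposited processed signal is intensity on a linear scale, from which background had been subtracted, per the file headers. The value table deposited by the authors holds log2 values, and its columns share a median of 10.02 and follow the arrays' log2 processed signal with r of 0.9975 to 0.9997. No source used here gives its normalization, and it served as an alternative.

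Control spots and outlier flags were left out, the 75th percentile of each array was subtracted from its log2 processed signal, and a probe's spots were averaged. The brightest probe stood for its locus. Loci were tested where every array of 1 or more groups was well above background. limma 3.58.1 in R 4.3.3 fitted 4 group means over 12 arrays (8 residual degrees of freedom), with p-values adjusted by Benjamini-Hochberg over 22581 loci. Errors in the text are SE of this fit unless called SD. Recovery was tested on simulated data.

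The members and the lists were chosen with earlier results of these data known. Loci named are those with the highest responses and submerged levels, at the threshold, with the largest genotype differences, in the lists, next to each other or with disagreeing probes. Saturated loci, which the rule also names, are given as counts. The 18 pairs of arrays with the same replicate number (slide) deviated together from their group means (r of 0.259 to 0.786, against -0.554 to 0.0308 for 36 other pairs), so the number was used as a block. The number of arrays limits the precision.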

Additional observations from a re-analysis of the deposited data

How the results depend on the processing

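The number of loci meeting the definition was 157, and 141 to 186 when single arrays were left out. It was 96 at a threshold of 3.5 and 354 when a locus had to be well above background in 1 group. The genotype difference of responses was called at 0 of the 157 loci under every alternative run. Over all loci it was called at 43 with quantile normalization, 44 with the authors' value table, 80 with the replicate block, 1 among loci well above background on all arrays, 6 to 42 without single arrays, and 0 with normexp correction or with slide 1 left out (against 21). Calls for the genotype average among the 157 loci were 4 with normexp, 17 with the replicate block and 5 to 13 without single arrays, the lowest without FR13A submerged replicate 1 (against 9). In controls they were 1 with normexp, 12 with the block and 1 to 5 without single arrays, with 1 without Goda Heenati control replicate 3 and 2 without FR13A control replicate 2 or Goda Heenati control replicate 1 (against 4). Under submergence they were 2 with quantile normalization, median centring or the authors' table, 3 with the mean of probes, 8 with the block and 1 to 2 without single arrays (against 1). Over all loci normexp gave 1890 and 1928 calls for the FR13A and Goda Heenati responses, and leaving out slide 1, an alternative chosen after seeing the data, gave 2582 and 2649. Normexp gave 1030, 556 and 622 calls for the genotype average, controls and submergence, and keeping only loci well above background on all arrays 1134, 754 and 988. Normexp, which used the median spot signal, moved the median response of all loci to 0.56 in FR13A and 0.16 in Goda Heenati, and median centring to 0.20 and 0.21. The share of higher calls went from 46.7% to 73.5% in FR13A and from 43.7% to 56.6% in Goda Heenati with normexp, from 49.3% to 72.2% for the genotype average, 48.8% to 69.8% in controls and 49.3% to 86.8% under submergence. For the difference of responses it went from 42.9% to 53.5% with quantile normalization. Of 322 values of 14 genotype results named above under alternatives, 252 kept their call, 70 lost it and 0 reversed. The cause was not tested.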
